A study of Mus musculus with 15 samples.

Results

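A set of 41 genes of fatty acid oxidation and of the PPARA response were followed in the livers of 15 mouse pups on postnatal day 1. The set was chosen by name as enzymes of mitochondrial, peroxisomal and omega-oxidation, carriers and binding proteins of fatty acids, lipid droplet proteins and known targets of PPARA, and it makes up 41 of the 27554 genes or single-probe transcripts tested. The choice was made with earlier results of these data known. All 41 were present on the array, on 52 probes, and every one was well above background on all 15 arrays, so the filter on dim probes removed none. Where a gene had several probes, the one with the highest mean signal stood for it.

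The pups were C57BL/6J littermates, each measured on its own Agilent 1-colour array. Of the pups 5 were wild type, and the other 10 are labelled as carrying a deletion of the imprinted miR-379/miR-410 cluster inherited from the mother (KO). The library of 1 of these 10 goes against that label, as described below. The KO pups were divided by blood glucose into 3 called normoglycaemic, which the study's design describes as mildly hypoglycaemic, and 7 called hypoglycaemic, described as severely so. The deletion is constitutive, present in every tissue of a pup that inherits it. Wild-type pups had a blood glucose of 58.6 ± 9.56 mg/dl (SD, n = 5). The mean was 48 ± 6.93 mg/dl in the normoglycaemic KO pups (n = 3) and 19.9 ± 9.34 mg/dl in the hypoglycaemic ones (n = 7). The comparison asked whether loss of the cluster, and the fall in glucose that accompanied it in some pups, went with altered liver expression of the fuel-burning programme of the newborn.

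At birth the supply of glucose through the placenta ends and milk, rich in fat, becomes the main fuel. The liver imports long-chain fatty acids into mitochondria as carnitine esters, shortens them by beta-oxidation, hands the electrons to electron transfer flavoprotein, and turns much of the acetyl-CoA into ketone bodies, while peroxisomes shorten very long chains and cytochromes P450 of the Cyp4a family start omega-oxidation. PPARA is a nuclear receptor that binds fatty acids and, paired with RXR, switches on many of these genes in fasting and suckling liver.

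A level is the log2 ratio of a probe's signal to the 75th percentile of its array, so a value of 0 is the brightness of a spot at that percentile and a difference of 1 is a doubling. Levels compare pups for 1 probe, not 1 gene with another. A gene was called where its Benjamini-Hochberg adjusted p from limma, over all 27554 genes, was under 0.05. In bulk liver, fewer cells of a type and less RNA per cell cannot be told apart.

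Several libraries stood apart. The non-coding transcript Mirg, which lies with the deleted cluster, had levels of 0.88 to 1.60 in wild type and -3.02 to -1.23 in 9 of the 10 KO libraries, but 0.66 in the library labelled hypoglycaemic KO replicate 2, so this library goes against its label. Transcripts of exocrine pancreas were highest in normoglycaemic KO replicate 2, hypoglycaemic KO replicate 3 and wild-type replicate 2. The 8 hepatocyte markers were well above background on all arrays, with a mean level of 7.72 to 8.00 in the 15 libraries. Wild-type replicate 2, the pup with the highest glucose (72 mg/dl), also had the lowest level of several members among the 15 libraries, as given below. It had the highest level of others, among them Fabp1, Acaa2, Vnn1, Hadhb and Ech1. For several results that rest on these libraries, values without them are also given, though not for every member.

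In hypoglycaemic KO liver, the enzymes of mitochondrial beta-oxidation lay below wild type and the lipid droplet proteins above it, but no single member passed the test. All 10 beta-oxidation genes had a difference below 0 (median -0.23, range -0.81 to -0.09), where 47.3% of all genes did and the median over all genes was 0.02. These 10 tended to move together within a pup, as given below, so they are not 10 separate observations. All 3 droplet proteins had a difference above 0 (median 0.60, and 0.24 without wild-type replicate 2), as 52.7% of all genes did, while the 7 peroxisomal genes were divided, 5 above and 2 below 0 (median 0.11). With limma, 0 of 41 members were called, beside 0.0181% of all genes (5 genes). At an unadjusted p under 0.05 there were 10 members, 5 higher and 5 lower, which is 24.4% of members beside 18.7% of all genes (9.69% higher and 8.96% lower).

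**Figure D1:**
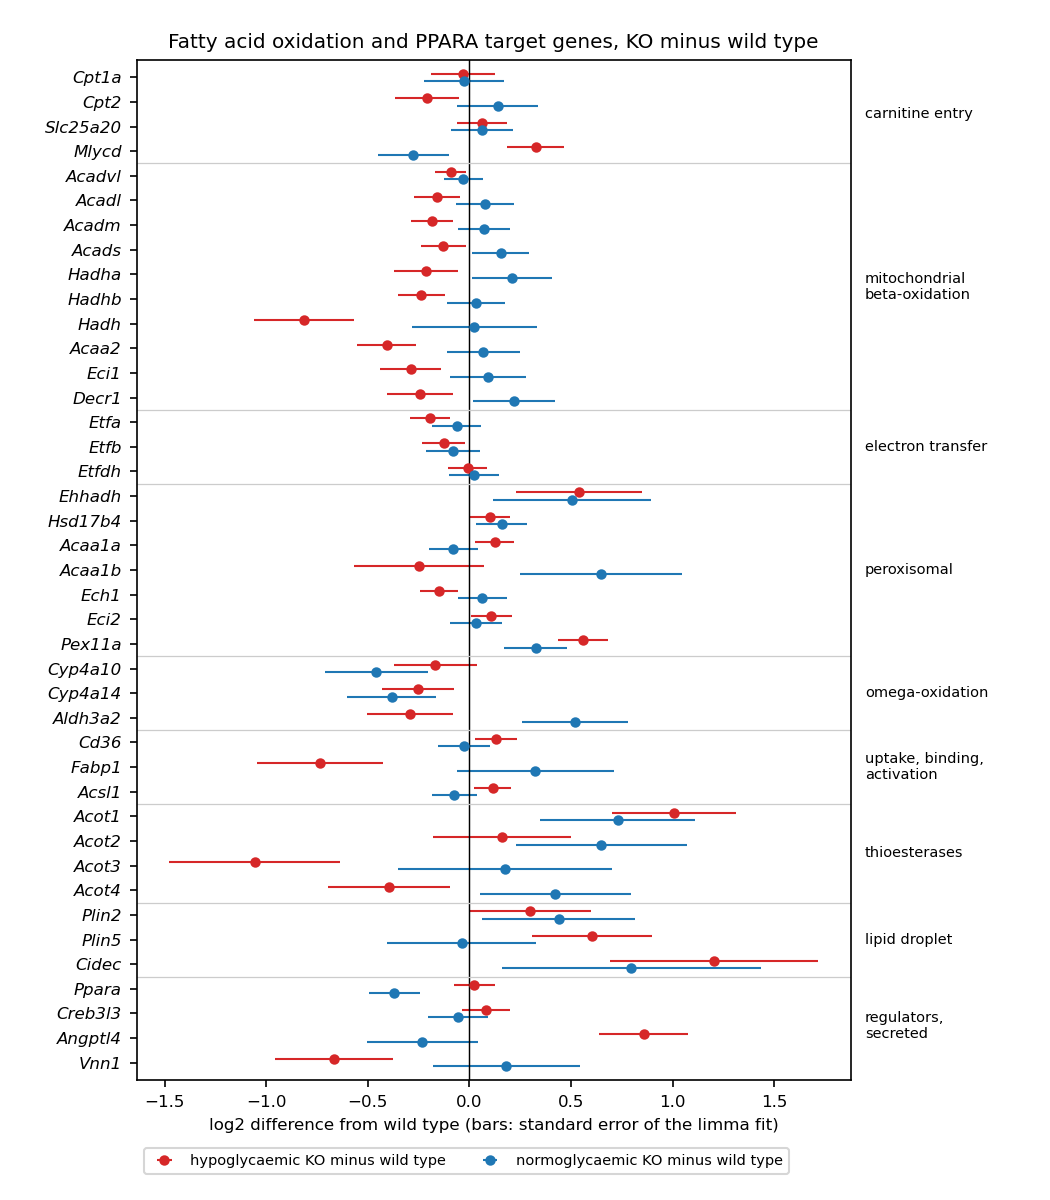
Difference of each of the 41 genes from wild type on the log2 scale (x axis), by role, in hypoglycaemic KO (red, n = 7) and normoglycaemic KO (blue, n = 3) against wild type (n = 5); points are differences of group means and bars are standard errors of the limma fit. All 10 red points of mitochondrial beta-oxidation lie left of 0, 9 of the 10 blue points lie right of it, and the droplet protein Cidec has the largest red difference, 1.20.

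Entry into mitochondria was described by 4 genes. Cpt1a encodes the carnitine palmitoyltransferase of the outer membrane, the step at which oxidation is controlled. Its level was 6.33, 5.60, 6.05, 6.12 and 6.32 in the wild-type pups, 6.04, 5.82 and 6.30 in the normoglycaemic KO pups, and from 5.64 through a median of 6.03 to 6.53 in the hypoglycaemic KO pups. The groups overlapped throughout, and the difference between hypoglycaemic KO and wild type was -0.03 ± 0.16 (SE). A further Cpt1a probe gave 0.03. Cpt2, which reforms acyl-CoA inside, and Slc25a20, the carnitine carrier of the inner membrane, had differences of -0.21 and 0.06.

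Mlycd encodes malonyl-CoA decarboxylase, which removes the inhibitor of Cpt1a. Its level was 5.26, 4.54, 5.18, 5.19 and 5.13 in wild type, 4.79, 4.60 and 4.96 in normoglycaemic KO, and 5.13 to 5.69 (median 5.41) in hypoglycaemic KO pups. Every hypoglycaemic KO pup lay above every normoglycaemic one. Wild type overlapped the lower hypoglycaemic values, apart from replicate 2, which was the lowest of all. The difference was 0.33 ± 0.14 against wild type (limma adjusted p = 0.227) and 0.60 ± 0.16 against normoglycaemic KO (adjusted p = 0.101). Without wild-type replicate 2 the former was 0.19, and the latter, itself unchanged, passed the test (limma adjusted p = 0.0477). That pup enters the latter only through the shared estimate of spread. In that fit 1.1% of all genes were called between the KO groups, beside 0.0544% with the pup.

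Among the beta-oxidation enzymes, Hadh had the largest difference. It encodes the short-chain 3-hydroxyacyl-CoA dehydrogenase of the matrix, read by a probe at chr3:130936889-130936948 (mm9). Its level was 4.48, 5.29, 4.74, 5.06 and 5.33 in wild type, 4.63, 5.03 and 5.35 in normoglycaemic KO, and 3.51 to 4.74 (median 3.92) in hypoglycaemic KO pups. In the hypoglycaemic group 4 pups, replicates 1, 3, 5 and 7, lay below every other pup of the study, and the remaining 3 lay among the wild-type values. The difference from wild type was -0.81 ± 0.25, a 1.76-fold lower mean (adjusted p = 0.124), and without the library labelled hypoglycaemic KO replicate 2 it was -0.90 (adjusted p = 0.0963).

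Acaa2, the mitochondrial 3-ketoacyl-CoA thiolase, had a level of 7.72, 8.24, 7.56, 7.65 and 8.03 in wild type, 7.83, 7.95 and 7.94 in normoglycaemic KO, and 7.07 to 7.89 (median 7.40) in hypoglycaemic KO pups. The groups overlapped, and replicate 2 was the highest of the hypoglycaemic group. The difference from wild type was -0.41 ± 0.14 (adjusted p = 0.16), and -0.31 without wild-type replicate 2, the highest of all pups.

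Hadha and Hadhb encode the subunits of the trifunctional protein, which handles long chains. For Hadha the wild-type levels were 2.12, 2.66, 2.44, 2.34 and 2.74, the normoglycaemic ones 2.43, 2.63 and 2.95, and the hypoglycaemic ones 1.92 to 2.66 (median 2.25). For Hadhb they were 5.97, 6.29, 5.77, 6.00 and 6.28, then 5.95, 6.05 and 6.28, then 5.57 to 6.01 (median 5.79). Wild-type and hypoglycaemic KO pups overlapped for both genes, with differences of -0.21 and -0.24. Without wild-type replicate 2 these were -0.16 and -0.18. Between the KO groups the differences were -0.42 and -0.27.

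Decr1, the dienoyl-CoA reductase for unsaturated chains, had wild-type levels of 6.15, 6.73, 6.29, 6.13 and 6.76, normoglycaemic ones of 6.48, 6.71 and 6.70, and hypoglycaemic ones of 5.74 to 6.57 (median 6.14). Replicates 5 and 7 of the hypoglycaemic group lay below all wild-type pups and the others overlapped. The difference from wild type was -0.24, and -0.63 by a further probe, and from normoglycaemic KO it was -0.46 (adjusted p = 0.208). Acadvl, Acadl, Acadm, Acads and Eci1, the acyl-CoA dehydrogenases of decreasing chain length and an enoyl-CoA isomerase, had differences from -0.29 to -0.09.

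The lower levels of these 10 genes were not shared by all hypoglycaemic pups. Taken pup by pup against the wild-type means, all 10 lay below in hypoglycaemic KO replicates 1, 3, 5 and 7, with medians of -0.27, -0.30, -0.52 and -0.39, whereas replicates 2, 4 and 6 had medians of -0.06, 0.02 and -0.02. Wild-type replicate 1 also had all 10 below the wild-type mean, with a median of -0.13. Wild-type replicates 3 and 4 had 9 and 8 below (medians -0.12 and -0.09), and replicates 2 and 5 had 1 and 0 (medians 0.17 and 0.22). Normoglycaemic KO replicates 1, 2 and 3 had 9, 3 and 0 below. The 10 genes thus tended to move together within a pup, so their shared sign does not count as 10 separate observations. Blood glucose was 9, 12, 14 and 29 mg/dl in replicates 1, 3, 5 and 7, and 16, 33 and 26 mg/dl in replicates 2, 4 and 6, of which replicate 2 is the library that goes against its label. In the fits without the library labelled hypoglycaemic KO replicate 2, without wild-type replicate 2, or without the 3 pancreas-rich libraries, 10 of 10 differences stayed below 0. They were below 0 for 9 of 10 genes among pups of the first slide and 10 of 10 among those of the second.

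Etfa, Etfb and Etfdh, the electron transfer flavoprotein and its dehydrogenase, had differences of -0.19, -0.13 and -0.01 between hypoglycaemic KO and wild type. Etfa had levels of 6.18, 6.24, 6.20, 6.13 and 6.34 in wild-type pups, of 6.06, 6.05 and 6.35 in normoglycaemic pups, and of 5.62 to 6.22 (median 6.08) in hypoglycaemic pups, and the groups overlapped. By compartment, 15 of the 18 mitochondrial members, which include Acot2, lay below 0, with a median of -0.17.

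**Figure D2:**
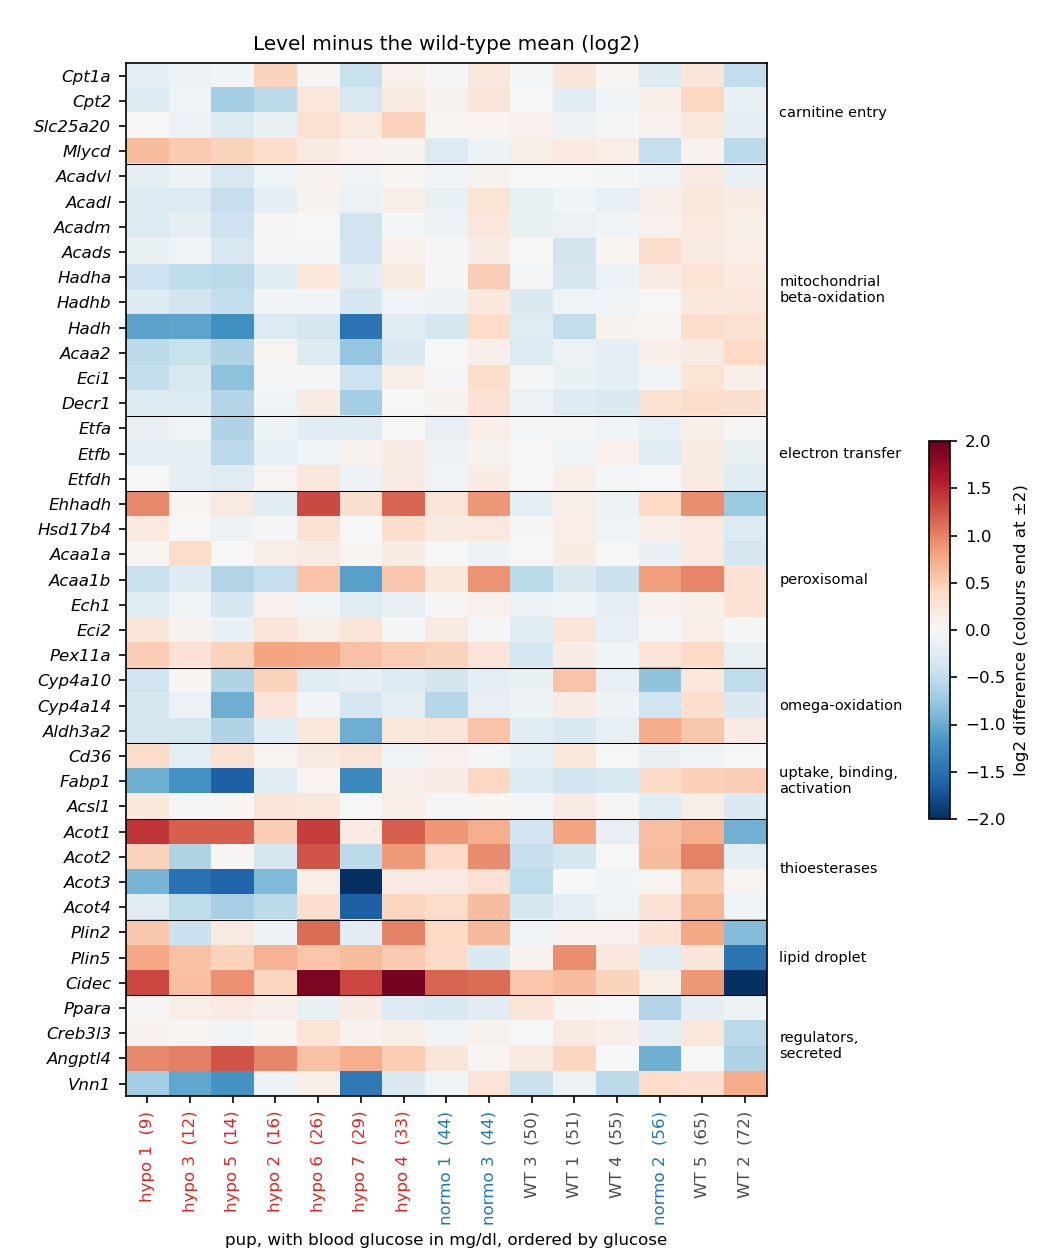
Level of each of the 41 genes (rows, by role) in each of the 15 pups (columns, ordered by blood glucose, in mg/dl in brackets) minus the wild-type mean, on the log2 scale; red is higher and blue lower, and label colours mark hypoglycaemic KO (red), normoglycaemic KO (blue) and wild type (grey). Hypoglycaemic KO replicates 1, 3, 5 and 7 are blue in all 10 rows of mitochondrial beta-oxidation, and wild-type replicate 2, at 72 mg/dl, is the bluest column for the droplet proteins.

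Peroxisomal members lay on both sides of 0. With the thioesterases Acot3 and Acot4, described further on, the compartment held 9 members, 5 above and 4 below wild type in hypoglycaemic KO pups (median 0.10), and its difference from the mitochondrial members was not tested. Pex11a, a membrane protein that drives division of peroxisomes and a known PPARA target, had the smallest p of all members between hypoglycaemic KO and wild type. Its level was 2.77, 2.47, 2.27, 2.56 and 3.02 in wild type, 3.07, 2.89 and 2.87 in normoglycaemic KO, and 2.91 to 3.40 (median 3.13) in hypoglycaemic KO pups. A single wild-type pup, replicate 5, reached into the range of the KO pups. The difference was 0.56 ± 0.12, or 1.47-fold (adjusted p = 0.0852), and it was 0.33 between normoglycaemic KO and wild type. Between hypoglycaemic KO and wild type it was 0.57 without the 3 pancreas-rich libraries. Without the library labelled hypoglycaemic KO replicate 2, the highest of its group, it was 0.52 (limma adjusted p = 0.0768).

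Ehhadh, the bifunctional enzyme of peroxisomal beta-oxidation, had differences of 0.54 and 0.50 in hypoglycaemic and normoglycaemic KO pups, with levels of 5.16 to 6.84 in wild type overlapping the 5.70 to 7.22 of hypoglycaemic KO. Hsd17b4, Acaa1a and Eci2, the D-bifunctional protein, a thiolase and an isomerase, had differences from 0.10 to 0.13 from wild type, and Ech1, a dienoyl-CoA isomerase, had -0.15. The other thiolase, Acaa1b, lay lower in the hypoglycaemic than in the normoglycaemic group. Wild-type pups had levels of 4.16, 4.74, 3.91, 4.02 and 5.42, normoglycaemic pups of 4.67, 5.29 and 5.34, and hypoglycaemic pups of 3.37 to 5.02 (median 4.01). The difference between hypoglycaemic and normoglycaemic KO was -0.90 ± 0.38 (adjusted p = 0.214), and the groups overlapped.

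For omega-oxidation, Cyp4a10 and Cyp4a14 had differences of -0.17 and -0.25 in hypoglycaemic KO pups and of -0.46 and -0.38 in normoglycaemic KO pups, none past the test. Near-identical Cyp4a genes share sequence, and a further Cyp4a10 probe also lists Cyp4a32, so their values are uncertain as to the gene. Aldh3a2, the fatty aldehyde dehydrogenase that follows them, had a level of 1.75, 2.21, 1.83, 1.88 and 2.59 in wild type, 2.31, 2.80 and 2.62 in normoglycaemic KO, and 1.08 to 2.28 (median 1.72) in hypoglycaemic KO pups. All hypoglycaemic KO pups were below all normoglycaemic ones, with a difference of -0.81 ± 0.25 (adjusted p = 0.121), and wild type overlapped both.

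Of the genes for uptake, binding and activation, Fabp1 stood apart. It encodes the liver fatty acid binding protein and is a textbook PPARA target, read by a probe at chr6:71154906-71154965 (mm9). Its level was 8.10, 9.00, 8.23, 8.20 and 8.98 in wild type, 8.67, 8.89 and 8.92 in normoglycaemic KO, and 6.88 to 8.60 (median 7.53) in hypoglycaemic KO pups. Hypoglycaemic KO replicates 1, 3, 5 and 7 lay between 6.88 and 7.53, below every other pup, and all 7 hypoglycaemic KO pups lay below the 3 normoglycaemic ones. The difference was -0.74 ± 0.31 from wild type (1.67-fold lower, adjusted p = 0.219) and -1.06 ± 0.37 from normoglycaemic KO (2.09-fold lower, adjusted p = 0.148). From wild type it was -0.61 without wild-type replicate 2, the highest of all pups. It was -0.82 without the library labelled hypoglycaemic KO replicate 2. Cd36, a fatty acid transporter of the plasma membrane, and Acsl1, a long-chain acyl-CoA synthetase, had differences of 0.13 and 0.11 from wild type.

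PPARA binds, with RXR, to a direct repeat of the hexamer AGGTCA with 1 base between the copies. RefSeq promoter windows, from 250 bases before to 50 after the start site (GRCm38.p6), were on hand for 34 of the 41 members (39 windows). A search on both strands for AGGNCANAGGNCA found it in 1 of the 39, that of Fabp1, and in 125 of 32851 windows of all genes (0.381%). The 250 bases before the Fabp1 start site, chr6:71199629-71199878 on the plus strand, are shown with the match in capitals because Fabp1 is the single member that holds it. The match begins 67 bases before the start site and reads AGGCCAtAGGTCA on the minus strand, with 11 of its 12 fixed bases as in the repeat of AGGTCA.
Fabp1: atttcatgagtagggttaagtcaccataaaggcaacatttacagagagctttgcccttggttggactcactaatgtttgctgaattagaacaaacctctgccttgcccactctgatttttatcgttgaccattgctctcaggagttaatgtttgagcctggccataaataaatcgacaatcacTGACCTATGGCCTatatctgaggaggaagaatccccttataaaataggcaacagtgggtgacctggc

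Near matches, with at least 10 of the 12 bases of the repeat, were in 7 of the 39 windows (17.9%) and in 3.86% of all windows. These are shown to compare members with differences of either sign, each with its spacer base in lower case and the hexamers in capitals.
Fabp1: AGGCCAtAGGTCA
Plin2: AGGTCAgGGGTCC
Slc25a20: AGGTGAaAGGTCG
Etfa: AGGGCAaAGGTAA
Cd36: AAGTCAgAGGCCA
Creb3l3: AGGGGAgAGGTCA
Acot4: CGGCCAaAGGTCA
The best windows of Mlycd and Hadh, called in the glucose relation described later, held 9 of the 12 bases and that of Acot1 held 8. The best of Pex11a held 7. A match describes the letters of this window and does not show binding. Genes with a near match had differences from wild type on either side of 0, such as Fabp1 at -0.74 and Plin2 at 0.30.

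The acyl-CoA thioesterases, which release free fatty acid from CoA and form a gene cluster on chromosome 12, had differences of either sign. Acot1, the cytosolic member, had a level of 6.47, 4.71, 5.29, 5.51 and 6.40 in wild type, 6.54, 6.28 and 6.41 in normoglycaemic KO, and 5.84 to 7.11 (median 6.87) in hypoglycaemic KO pups. Its difference from wild type was 1.01 ± 0.31, or 2.01-fold (adjusted p = 0.124), with overlap through wild-type replicates 1 and 5, and 0.77 without wild-type replicate 2. Acot3, a peroxisomal member, had a level of 2.94, 3.00, 2.44, 2.90 and 3.48 in wild type, 3.12, 3.01 and 3.25 in normoglycaemic KO, and 0.14 to 3.13 (median 2.02) in hypoglycaemic KO pups. Its difference was -1.06 ± 0.42 (adjusted p = 0.198), and -0.94 by a further probe.

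Hypoglycaemic KO replicates 4 and 6 lay in the wild-type range of Acot3 and the other 5 lay below all wild-type pups. Acot4, also peroxisomal, had wild-type levels of 1.81, 1.93, 1.63, 1.91 and 2.66, normoglycaemic ones of 2.35, 2.28 and 2.61, and hypoglycaemic ones of 0.36 to 2.41 (median 1.49). Its difference between the KO groups was -0.82 (adjusted p = 0.224), with overlap. Acot2, the mitochondrial member, had a difference of 0.16 from wild type. The coding sequences of these paralogues are alike, so signal may be shared between their probes.

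The droplet proteins Plin2, Plin5 and Cidec coat lipid droplets, and Cidec makes them fuse. Cidec had a level of 2.51, -0.59, 2.45, 2.33 and 2.76 in wild type, 3.05, 2.01 and 3.01 in normoglycaemic KO, and 2.33 to 3.81 (median 3.22) in hypoglycaemic KO pups. Wild-type replicate 2 lay far below all the others. The difference was 1.20 ± 0.51 (adjusted p = 0.226) with this pup and 0.58 without it.

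Plin5, which tethers droplets to mitochondria, had a level of 6.27, 3.90, 5.43, 5.57 and 5.59 in wild type, 5.74, 5.13 and 5.06 in normoglycaemic KO, and 5.80 to 6.12 (median 5.93) in hypoglycaemic KO pups. The hypoglycaemic KO pups were the closest together and all lay above the normoglycaemic ones, while wild-type replicates 1 and 2 marked the highest and lowest values of the study. The difference from wild type was 0.60 ± 0.30 (adjusted p = 0.291), and 0.24 without wild-type replicate 2. Plin2 had a difference of 0.30 ± 0.30, and of 0.08 without that pup.

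Adipocyte transcripts, which would bring droplet proteins with them, were followed by a list of 8 markers, of which 7 could be tested. Their mean level ran from -3.30 to -2.16 over the wild-type libraries, from -2.62 to -2.37 over the normoglycaemic ones and from -2.56 to -1.79 over the hypoglycaemic ones, and 3 of them were well above background on all arrays. It was lowest in wild-type replicate 2. Its part in the droplet result was not tested.

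Ppara itself, the receptor, had a level of 5.09, 4.96, 5.31, 5.06 and 4.88 in wild type, 4.76, 4.48 and 4.83 in normoglycaemic KO, and 4.80 to 5.22 (median 5.16) in hypoglycaemic KO pups. The 3 normoglycaemic KO pups lay below all wild-type pups, a pattern shown by 1.54% of all genes. Their difference was -0.37 ± 0.13 (adjusted p = 0.965), the single member at an unadjusted p under 0.05 in that comparison (2.44% of members, beside 4.79% of all genes and 1.72% of them lower). Between hypoglycaemic KO and wild type the difference was 0.02 ± 0.10, with -0.04 and 0.01 by 2 further probes. Creb3l3, a liver transcription factor of the fasting response, differed by 0.08.

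Angptl4, a secreted inhibitor of lipoprotein lipase induced by fatty acids through PPARs, was the single member whose values did not overlap between hypoglycaemic KO and wild type, a separation shown by 1.46% of all genes. It was read by a probe at chr17:33911880-33911939 (mm9). Its level was 6.19, 5.16, 5.94, 5.75 and 5.77 in wild type, 6.01, 4.79 and 5.79 in normoglycaemic KO, and 6.26 to 7.03 (median 6.72) in hypoglycaemic KO pups. All 7 hypoglycaemic KO pups were above all 8 others. The difference was 0.86 ± 0.22 from wild type (1.81-fold, adjusted p = 0.0958) and 1.09 ± 0.26 from normoglycaemic KO (2.13-fold, adjusted p = 0.086). Without wild-type replicate 2 these were 0.71 (limma adjusted p = 0.232) and 1.09 (adjusted p = 0.0477). The difference of 1.09 is unchanged, as that pup enters it only through the shared estimate of spread. In that fit 1.1% of all genes were called between the KO groups. Without the 3 pancreas-rich libraries the differences were 0.68 and 0.70. Without the library labelled hypoglycaemic KO replicate 2 they were 0.84 (limma adjusted p = 0.102) and 1.07 (adjusted p = 0.107).

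Vnn1, a pantetheinase of the plasma membrane and a sensitive PPARA target, lay lower in hypoglycaemic KO pups. Its level was -0.11, 0.74, -0.42, -0.52 and 0.34 in wild type, -0.09, 0.38 and 0.27 in normoglycaemic KO, and -1.42 to 0.12 (median -0.68) in hypoglycaemic KO pups. The difference was -0.67 ± 0.29 (adjusted p = 0.236), with replicates 1, 3, 5 and 7 below all wild-type pups. Without wild-type replicate 2, the highest of all pups, the difference was -0.48.

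**Figure D3:**
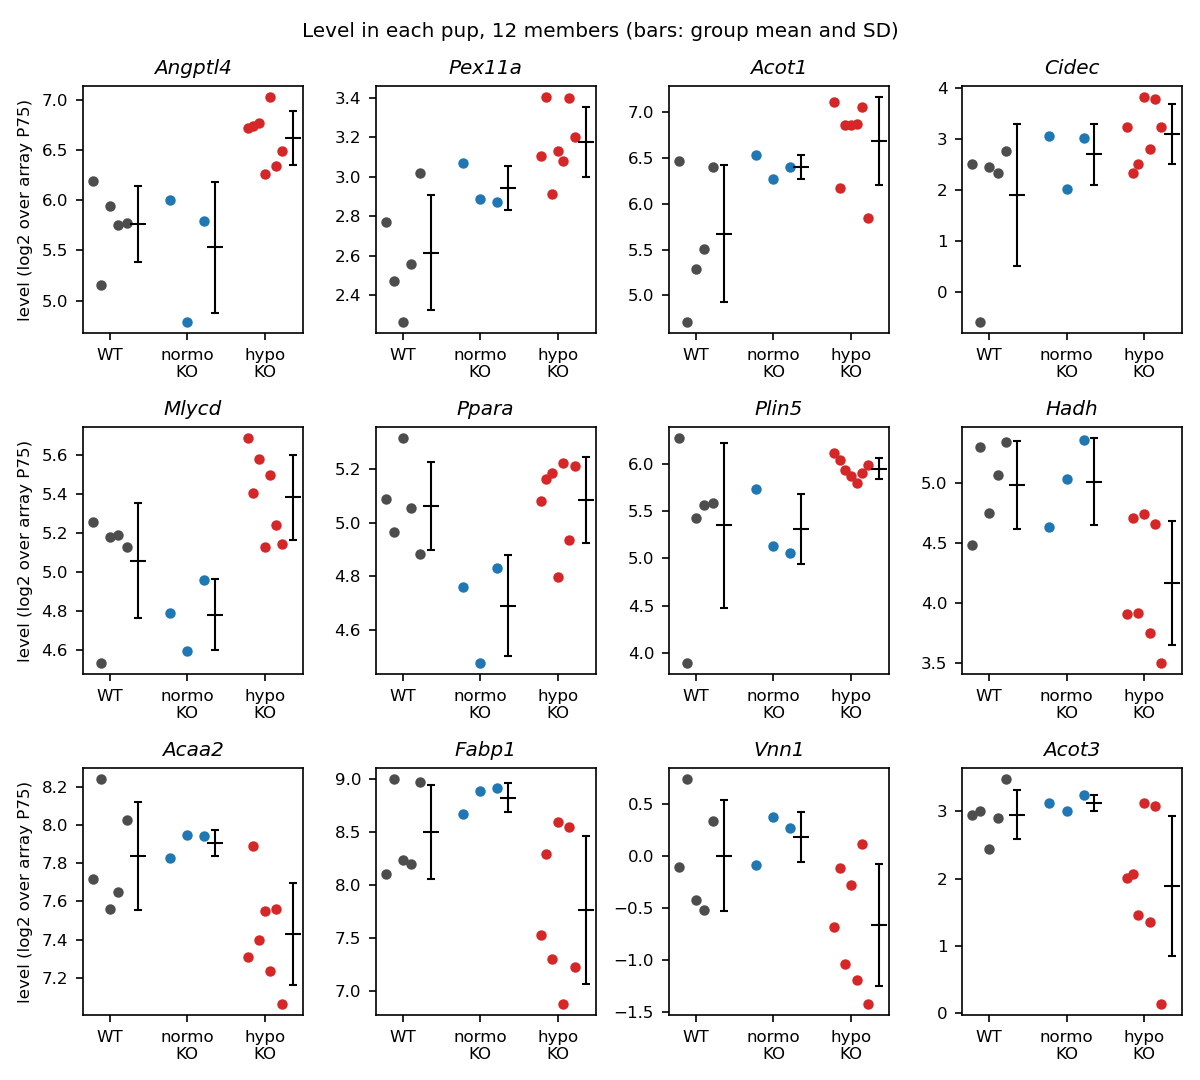
Level of 12 of the genes in each pup (points; log2 over the array's 75th percentile, with separate y axes), with the mean and SD of each group (black) for wild type (grey, n = 5), normoglycaemic KO (blue, n = 3) and hypoglycaemic KO (red, n = 7). In the Angptl4 plot the 7 red points, 6.26 to 7.03, lie above all others, and in the Hadh and Fabp1 plots 4 of the 7 red points lie below all other pups.

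In normoglycaemic KO pups the members lay on both sides of wild type, from Cyp4a10 at -0.46 to Cidec at 0.80. With limma 0 of 41 were called, beside 0.0% of all genes, with 1 at an unadjusted p under 0.05. A difference above 0 was found for 27 of 41 (median 0.07, with 0.01 over all genes), as for 52.8% of all genes. Beta-oxidation genes had 9 of 10 above 0, with a median of 0.07. The 4 thioesterases were all above 0 (0.17 to 0.73). With 3 pups, of which replicate 2 was rich in pancreas transcripts, this comparison has the least precision of the study.

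Hypoglycaemic and normoglycaemic KO pups share the deletion by their labels, which the Mirg level of hypoglycaemic replicate 2 goes against, and differ in glucose. None of the 41 members was called between them with limma, beside 0.0544% of all genes, and 13 (31.7%) had an unadjusted p under 0.05, 10 of them lower, beside 19.3% of all genes (9.37% higher and 9.97% lower). The 10 beta-oxidation genes all had a difference below 0 (median -0.33), and 17 of the 18 mitochondrial members did, as 51.1% of all genes did. Mlycd, Acaa1a, Plin5 and Angptl4 were above all normoglycaemic pups in every hypoglycaemic pup, and Aldh3a2 and Fabp1 below, which makes 6 of 41, beside 9.03% of all genes not overlapping (5.07% above and 3.96% below). This comparison shares its hypoglycaemic pups with that against wild type, so the 2 are not independent.

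Blood glucose was then used as a continuous measure. Over all 15 pups, 9 of 41 members (22.0%) were called for a slope, beside 16.8% of all genes, so the share among members was near that background. With glucose 5 rose, namely Hadh, Fabp1, Acaa2, Vnn1 and Hadhb, and 4 fell, namely Angptl4, Mlycd, Acot1 and Plin5, beside 8.04% of all genes that rose and 8.77% that fell. The slope of Angptl4 was -0.27 ± 0.04 per 10 mg/dl (adjusted p = 0.00251), that of Mlycd -0.13 ± 0.03 (adjusted p = 0.00787) and that of Hadh 0.22 ± 0.05 (adjusted p = 0.00945). In percent per 10 mg/dl, the signal of Hadh was 16.8% higher and that of Fabp1 18.8% higher. This slope is not separate from the comparison of groups, since glucose defined the KO groups and wild type had the highest values.

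The beta-oxidation genes leaned the same way, with a slope above 0 for 10 of 10 (median 0.08 per 10 mg/dl) and 3 of them called, where 46.7% of all genes had a slope above 0 and 53.3% below. All 3 droplet proteins had a slope below 0, and Plin5 was called. Without wild-type replicate 2 the slopes were 0.04 for Plin2, -0.09 for Cidec and -0.11 for Plin5, none of them called. Of the 7 peroxisomal genes 2 had a slope above and 5 below 0, and none was called. Mlycd, Hadh, Fabp1 and Angptl4 were called in each of the 15 fits that left out 1 pup. Acaa2, Plin5, Hadhb, Vnn1 and Acot1 were called in 12, 11, 10, 10 and 10 of them. Without wild-type replicate 2, 4 members were called (9.25% of all genes), without hypoglycaemic KO replicate 1 also 4 (9.16%), without hypoglycaemic KO replicate 5 there were 5 (10.1%), and without the 3 pancreas-rich libraries Angptl4 alone was called (2.13%). Without the library labelled hypoglycaemic KO replicate 2 there were 11 (15.4%).

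Within groups, where only the spread of glucose among pups of 1 group counts, 0 of 41 members were called with limma, beside 0.0% of all genes. At an unadjusted p under 0.05 there were 9 (22.0%), 5 with a slope above 0 and 4 below, beside 18.1% of all genes (8.11% above and 9.97% below). The smallest adjusted p belonged to Mlycd (-0.24 ± 0.04 per 10 mg/dl, adjusted p = 0.0557) and Angptl4 (-0.35 ± 0.08, adjusted p = 0.062). All 10 beta-oxidation genes had a slope above 0 within groups, with a median of 0.13, as 44.0% of all genes did.

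Among the 10 pups labelled KO alone, Mlycd, Angptl4, Ppara and Plin5 fell with glucose (adjusted p = 0.00369, 0.00648, 0.0232 and 0.0401, limma), 4 of 41 members beside 9.11% of all genes. The slope of Mlycd was -0.22 and that of Angptl4 -0.38 per 10 mg/dl. Without the library labelled hypoglycaemic KO replicate 2, again 4 were called, beside 7.7% of all genes: Mlycd, Angptl4 and Ppara, which fell, and Fabp1, which rose (adjusted p = 0.00876, 0.0141, 0.0403 and 0.0428), while Plin5 was not (adjusted p = 0.0654). Both fits to the KO pups alone were added after the data had been seen. Neither is separate from the comparison of the KO groups, since glucose defined those groups. The 7 hypoglycaemic pups had Mlycd levels in exactly the reverse order of their glucose, from 5.69 at 9 mg/dl to 5.13 at 33 mg/dl.

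**Figure D4:**
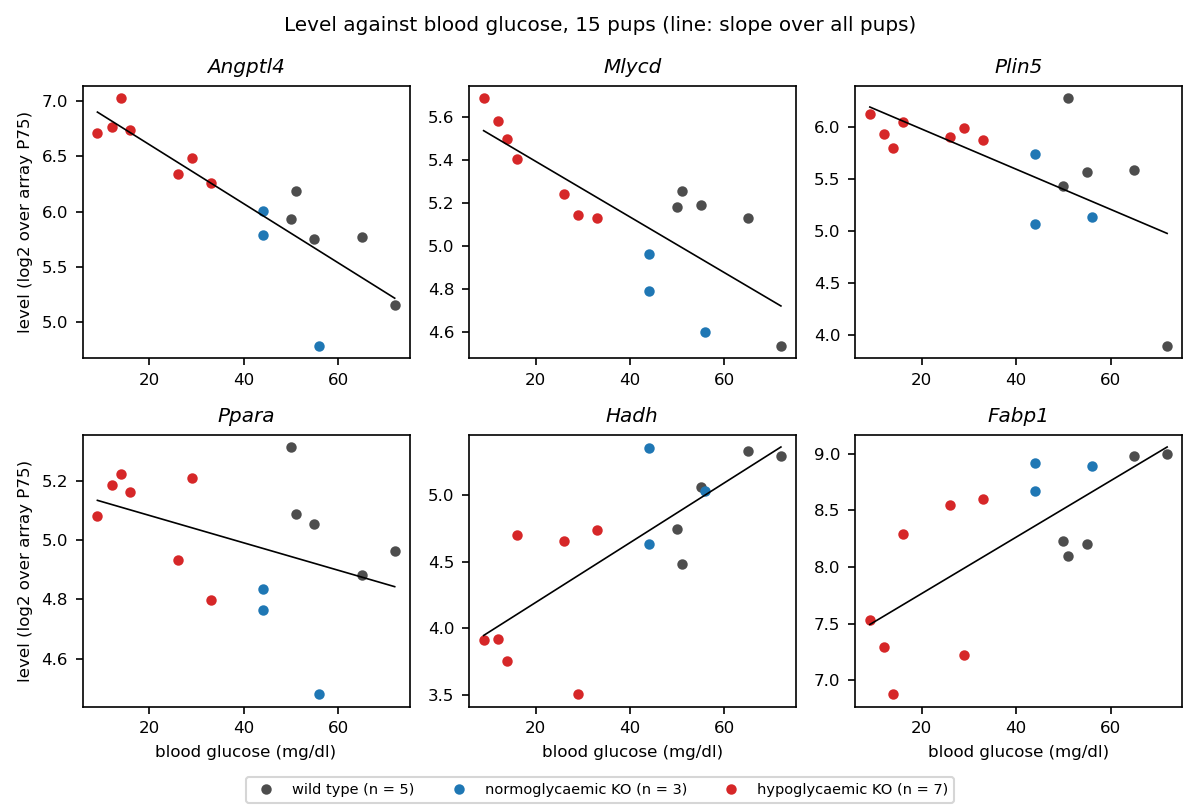
Level (log2 over the array's 75th percentile, separate y axes) against blood glucose in mg/dl for 6 genes in 15 pups, wild type grey, normoglycaemic KO blue, hypoglycaemic KO red; the line is the limma slope over all pups. Angptl4 and Mlycd descend with glucose also among the red points alone, while for Hadh and Fabp1 the hypoglycaemic KO pup at 29 mg/dl lies far below the line, and Ppara was not called over all pups.

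The rest of the pathway was followed in lists of 55 further genes of fatty acid oxidation, 19 of droplets and lipolysis and 21 regulators, Lpin1 being in the first and the last. None was called between hypoglycaemic KO and wild type, where 35 of the 55 lay below 0 (median -0.15). The 6 with the smallest p were Acsm5 (-3.40), Slc27a4 (0.73), Pdk4 (1.33), Lpin2 (1.01), Pecr (-0.95) and Acsm1 (-1.63). Acsm5 and Acsm1 activate medium-chain fatty acids in mitochondria, Slc27a4 is a fatty acid transport protein and Pecr a peroxisomal reductase. Acsm5 was well above background on 10 of the 15 arrays.

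Pdk4, the kinase that closes pyruvate dehydrogenase when fat is burnt, ran from 1.63 to 2.79 over the wild-type pups, from 1.03 to 2.21 over the normoglycaemic pups and from 2.52 to 4.26 (median 3.70) over the hypoglycaemic pups. The overlap was of replicate 4 of the hypoglycaemic KO pups with wild-type replicate 1. Its difference was 1.33 ± 0.30 (adjusted p = 0.0861). Fgf21, a hormone made by suckling liver under PPARA, had a difference of -1.85 ± 0.83 (adjusted p = 0.248).

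Among the droplet and lipolysis genes, Pnpla2, the adipose triglyceride lipase, had a difference of 1.45 ± 0.35 (adjusted p = 0.0885) and G0s2, which inhibits that lipase, of -1.23 ± 0.47 (adjusted p = 0.18). The level of Pnpla2 was 2.82 to 5.18 in wild type and 4.87 to 6.00 (median 5.87) in hypoglycaemic KO pups. That of G0s2 was 2.70 to 4.09 in wild type and 0.96 to 3.80 (median 2.32) in hypoglycaemic KO pups. Both overlapped. Fitm1, Mgll, Dgat1 and Fitm2 had differences of -1.53, -0.80, 0.46 and 0.46.

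The slope over all pups called 17 of the 55 pathway genes, 13 rising with glucose and 4 falling, and 7 of the 19 droplet genes, 3 rising and 4 falling, beside 16.8% of all genes (8.04% rising and 8.77% falling). The lists were chosen with earlier results of these data known, so these shares are not an independent comparison with all genes. Among the rising pathway genes were Acsm5, Acsm1, Pecr, Nudt7, Crot, Hacl1, Acsl3, Acad10, Abcd2, Decr2, Scp2 and Amacr, of which Pecr, Nudt7, Crot, Hacl1, Abcd2, Decr2, Scp2 and Amacr are known from peroxisomes. Falling ones were Slc27a4, Lpin2, Pdk4 and Lpin1. Of the droplet genes Pnpla2, Dgat1, Fitm2 and Hilpda fell, and Fitm1, Mgll and Abhd5 rose. The slope of Pnpla2 was -0.43 ± 0.06 per 10 mg/dl (adjusted p = 0.00226).

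Of the 21 regulators 9 were called over all pups, beside 16.8% of all genes. This list too was chosen with earlier results known, so its share does not show an excess of regulators. With glucose 8 of the 9 fell, as 8.77% of all genes did: Rxrb, Ppargc1b, Esrra, Lpin1, Ncoa2, Sirt1, Ppargc1a and Rxra, while Pparg rose. Ppargc1a, the coactivator of PPARA in fasting, had a level of 1.64 to 2.94 in wild type, 0.62, 1.33 and 1.78 in normoglycaemic KO and 1.49 to 4.07 (median 3.59) in hypoglycaemic KO pups. Its slope was -0.36 ± 0.10 per 10 mg/dl (adjusted p = 0.0254), and its difference between hypoglycaemic and normoglycaemic KO was 1.93 ± 0.51 (adjusted p = 0.0975). Lpin1, a partner of that coactivator, lay between 3.71 and 4.21 in 5 hypoglycaemic KO pups, replicates 1, 2, 3, 5 and 7, and at -0.99 and -0.16 in replicates 4 and 6, within the wild-type range of -1.01 to 0.99. Wild-type and normoglycaemic KO pups did not reach above 0.99.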

How the data were processed

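Per the file headers, the authors' scanner intensity values come from Agilent Feature Extraction 10.10, with background subtraction and detrending within each array and no scaling between arrays. The authors also deposited log2 values, made using limma per the submitters' processing notes, which served as an alternative. Here each processed signal was divided by its array's 75th percentile and put on the log2 scale. Control spots and spots marked as outliers were left out, and a probe was kept if 3 or more of the 15 arrays had it well above background. Between 57.9% and 76.2% of spots were well above background on an array, and the number of arrays limits the precision. Models with 3 group means, with a glucose slope added, or with the slope alone were fitted in limma 3.58.1 (R 4.3.3, 12 residual and 1.84 prior degrees of freedom). They were also run on simulated data with known changes and independent noise in each gene. Those data hold no outlying library and no genes that move together. The members and lists were chosen with earlier results of these data known. Members described pup by pup were those called, those at an unadjusted p under 0.05 between groups, the member with the largest difference of each role, Ppara and Cpt1a; other pathway genes were named where called, as the 6 smallest p of a list, or in advance. The pups of a group are separate animals per the labels. Replicate numbers were not used to pair the pups in the main fits, and whether they do was not settled. Alternatives were other normalizations, background corrections, filters, blocks, variance models and left-out libraries. Promoter windows are from RefSeq (GRCm38.p6); probe positions are mm9, per the file headers. The members without a window (Acaa2, Angptl4, Cyp4a10, Cyp4a14, Decr1, Hsd17b4 and Vnn1) were not searched. A result on 1 further pathway gene is not reported here.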

Additional observations from a re-analysis of the deposited data

Results flagged for a closer look

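Each of the 41 genes was examined in the wild-type and the hypoglycaemic KO group. In 3 of these 82 gene and group pairs the highest or lowest pup lay farther from its nearest neighbour than the cut-off allowed. The cut-off was Dixon's critical value for wild type and a stricter one for the 7 hypoglycaemic KO pups. Etfa in hypoglycaemic KO replicate 5 (5.62, nearest 5.99) lay past Dixon's value for 7 pups but not past the cut-off used. Chance gives about 1 in 20 pairs at Dixon's value and fewer at the stricter cut-off. Whether 3 pairs exceed chance cannot be judged from this rate, as members of 1 pup are not separate observations. All 3 past the cut-off used were wild-type replicate 2, the pup with the highest blood glucose. Its level was 4.54 for Mlycd (nearest 5.13), -0.59 for Cidec (nearest 2.33) and 6.01 for Creb3l3 (nearest 6.56). This library was also among the 3 with the highest level of exocrine pancreas transcripts (mean level 2.48), and the part of either in these values was not tested.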

How the results depend on the processing

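The 41 members had 0 calls between hypoglycaemic KO and wild type except with array weights (1, Pex11a, beside 3.0% of all genes). When single pups were left out there were 0 to 2, beside 0.0% to 2.72% of all genes. Between the KO groups there was 1 call with a trended, robust variance (0.765% of all genes) and 2 with array weights (8.09%). With single pups left out there were 0 to 2 (0.0% to 3.44%). Within-group glucose slopes gave 1 call with quantile normalization (0.0726%) and 2 each with normexp (1.69%), the deposited values (1.08%), the all-arrays filter (2.5%) or the trended variance (1.94%). They gave 0 to 6 with single pups left out (0.0% to 3.56%). Over all pups, the 9 calls (16.8%) became 17 with normexp (18.7%), 14 with the deposited values (18.8%) or the all-arrays filter (24.5%), and 15 with the trended variance (19.8%). There was 1 without the pancreas-rich libraries (2.13%) and 0 (0.0%) within either slide alone. KO pups alone gave 4 (9.11%), also 4 there without the library labelled hypoglycaemic KO replicate 2 (7.7%). Single pups left out gave 4 to 13 (9.16% to 19.8%). The all-arrays filter removes genes from the adjustment and each slide holds fewer pups; for the others the cause was not tested.

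Counts for the further pathway genes are given with the share of all genes called in the same fit. Hypoglycaemic KO against wild type gave 1 call with the trended variance (0.449%) and 7 with array weights (3.0%). With single pups left out there were 0 to 10 (0.0% to 2.72%). Between KO groups there were 2 with normexp (0.465%) and 3 with the all-arrays filter (0.8%) or the trended variance (0.765%). Array weights gave 22 (8.09%), and single pups left out gave 0 to 12 (0.0% to 3.44%). Within groups there were 8 with normexp (1.69%) or the all-arrays filter (2.5%) and 4 with the deposited values (1.08%). The trended variance gave 9 (1.94%), and single pups left out gave 0 to 14 (0.0% to 3.56%). Over all pups the 32 calls (16.8%) became 0 within either slide (0.0%) and 8 without the pancreas-rich libraries (2.13%). KO pups alone gave 21 (9.11%), and single pups left out gave 19 to 35 (9.16% to 19.8%).

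Medians between the KO groups among pups of the second slide alone, with 1 normoglycaemic pup, were -0.29 over all members, -0.49 for mitochondrial, -0.25 for peroxisomal and -0.58 for beta-oxidation genes. The replicate number as a block gave a peroxisomal median of 0.33 between normoglycaemic KO and wild type. It gave 7 calls over all pups (12.0% of all genes), 6 of them shared. Same-numbered pups of different groups correlated at -0.18 to 0.32 (median 0.12), over 0.1 in 6 of 11 pairs. Pups of other numbers correlated at -0.28 to 0.22 (median -0.01), over 0.1 in 10 of 60 pairs. Same-numbered pups were thus somewhat more alike, and whether the numbers pair them was not settled. A change of sign was counted only where neither value was within 1 SE of 0, and there was none. The pancreas-rich and KO-only settings were chosen after seeing the data.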
